A study of Mus musculus with 5 samples.

Results

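Between the third and the fourth day after a cardiotoxin injury, the miRNAs of regenerating mouse muscle were compared over all 217 miRNA assays of the series, each with 4 threshold cycle (Ct) values at day 3 and 4 at day 4. Every miRNA assay of both arms is a member, so none was picked from the others by its value, and 5 control RNAs served only for scaling. The muscle was tibialis anterior, at the front of the lower leg, of C57BL/6J males aged 4 to 6 months. Both groups had received cardiotoxin, a snake venom peptide that destroys myofibres and spares many of the stem cells beside them, at 2.5 µM in a volume of 100 µl in the anterior compartment of each hind limb. They differed only in the time of collection, 3 or 4 days later, and per the labels each time point had 4 mice. Uninjected baseline muscles of the same strain, sex and age are given to place the levels and are no arm of the comparison. Whole muscle was measured, so a value is the sum over all its cells.

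A miRNA is a short RNA that binds messenger RNAs through its seed, bases 2 to 8 from the 5′ end, and lowers their output. miRNAs with the same seed can bind the same sites, and many miRNAs are cut from a shared primary transcript, so clusters can be made together. In the days after cardiotoxin, phagocytes clear the dead fibres, satellite cells divide, and the resulting myoblasts leave the cell cycle and fuse into new fibres, in which the myogenic miRNAs are known to accumulate.

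Mature sequences from RefSeq (GRCm38.p6) were matched to 184 of the 217 assays, with 132 distinct seeds. The first set is the miRNAs with the largest rises and the falls, since the comparison turns on them. The capitals mark the seed.
miR-351: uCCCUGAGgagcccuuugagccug
miR-431: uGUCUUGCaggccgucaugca
miR-675-3p: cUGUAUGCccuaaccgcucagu
miR-298: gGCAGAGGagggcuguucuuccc
miR-433: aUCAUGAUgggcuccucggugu
miR-133b: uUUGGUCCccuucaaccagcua
miR-128a: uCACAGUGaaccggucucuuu
miR-380-5p: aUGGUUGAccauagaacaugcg
miR-499: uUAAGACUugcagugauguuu
miR-135a: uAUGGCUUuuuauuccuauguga
miR-682: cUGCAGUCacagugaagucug
miR-223: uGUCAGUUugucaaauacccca
miR-187, miR-486 and miR-685 belong to the same set.

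The second set shows the seeds that the X-linked cluster shares with miRNAs encoded elsewhere, and the arms of the miR-335 hairpin, which carry different seeds. The capitals again mark bases 2 to 8.
miR-125a-5p: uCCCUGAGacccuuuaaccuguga
miR-125b-5p: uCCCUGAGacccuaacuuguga
miR-322: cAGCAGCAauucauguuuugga
miR-15a: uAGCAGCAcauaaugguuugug
miR-16: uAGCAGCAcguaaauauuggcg
miR-497: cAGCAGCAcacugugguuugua
miR-503: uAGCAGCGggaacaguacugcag
miR-335-5p: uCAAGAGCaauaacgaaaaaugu
miR-335-3p: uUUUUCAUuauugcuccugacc
miR-351 has the seed of miR-125a-5p and miR-125b-5p, and miR-322 that of miR-15a, miR-16 and miR-497. The seed of miR-503 ends in another base.

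Ct is the PCR cycle at which the product becomes visible, so a lower Ct means more RNA and a difference of a single cycle is close to a doubling. Ct values of different assays cannot be ranked against each other. Detection required that 3 or more of the 4 values lie below Ct 35, which held for 216 miRNAs at day 3 and 217 at day 4. No file links a Ct to a particular mouse. Values of an arm with the same number, in the deposited order, were taken as the same sample over all assays and are called a well. The labels do not state this. The p-values rest on the spread between values of the same arm, which may in part be technical.

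The control RNAs did not all stay level from day 3 to day 4. For U6, a spliceosomal RNA, Ct averaged 13.0 ± 0.571 at day 3 (SD, n = 4) and 13.22 ± 0.651 at day 4 (exact permutation p = 0.657). Y1, a cytoplasmic RNA bound by Ro60, went from Ct 20.92 ± 0.17 to 19.66 ± 0.09 and the arms did not overlap. Its exact permutation p of 0.0286 is the smallest that 4 values against 4 can give, and adjusted over the 5 controls it was 0.143. The small nucleolar RNAs U87, snoRNA135 and snoRNA202 moved by 0.105, 0.01 and -0.195 cycles (exact permutation p = 0.6, 0.943 and 0.114).

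**Figure D1:**
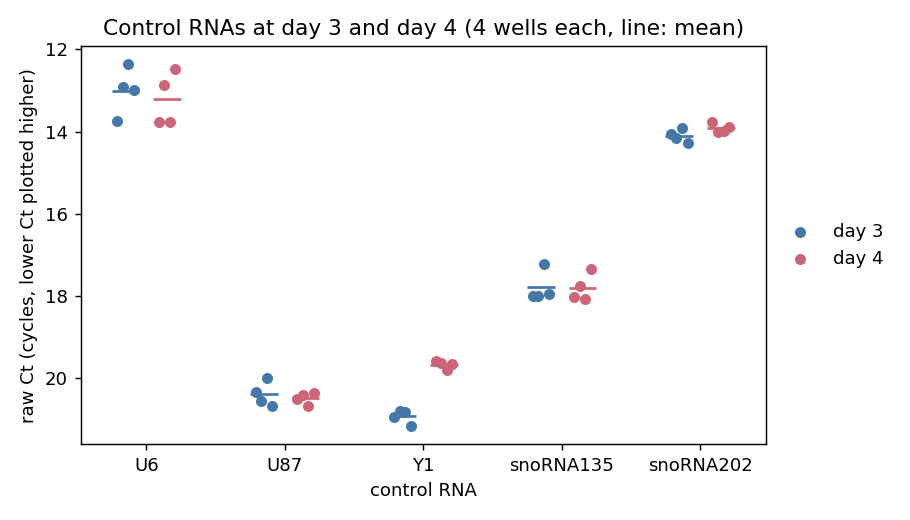
Raw Ct (cycles, axis inverted so that more RNA is higher) of the 5 control RNAs in each of the 4 values of day 3 and of day 4, with a line at each mean. The day 4 points of Y1, between 19.58 and 19.79, all lie above its day 3 points, while the arms of the other 4 RNAs overlap and U6 spreads between 12.36 and 13.77.

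Changes are therefore given relative to the median miRNA, after each well was shifted by how far 205 miRNAs, all below Ct 35 throughout, lay from baseline at their median. Relative to U6 each such change is higher by 0.45 on the log2 scale, and the median of all changes is -0.11 on the first scaling and 0.34 on the second. Standard errors had a median of 0.19 on the first scaling and 0.46 on the second. They and limma's p-values use a spread pooled over all 6 arms of the series, so arms outside the comparison can widen or narrow them. For miR-370 the standard error was 0.68. The SD of its scaled level was 0.095 at day 3 and 0.111 at day 4, and that of its baseline Ct was 1.21. The words rose and fell are kept for miRNAs that passed on both scalings, at limma's adjusted p below 0.05.

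Of the 8 values per assay, 3 stood apart. These were value 1 of day 3 and values 1 and 3 of day 4, in the order of the files, with U6 Ct between 13.75 and 13.77, against 12.36 to 12.99 in the other 5. Over the miRNAs, the deviations of these 3 from their arm's mean correlated with each other at 0.517 or more, and with those of the other 5 at -0.1 or less. Deviations within an arm sum to 0, so negative correlations between values of the same arm are in part built in. The 3 values fall in both arms. The calls that were lost without them are named beside their results, and their part in the results was otherwise not tested.

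Over the 216 tested miRNAs, 46 rose (21.3%) and 4 fell (1.85%) between day 3 and day 4. Relative to the median miRNA alone, 117 passed (54.2%), of which 56 were higher (25.9%) and 61 lower (28.2%). U6 alone called these same 46 higher and 4 lower, so 92% of its calls were higher against 47.9% on the first scaling. That share was 11.7% relative to Y1, 86.4% relative to U87, 75.9% relative to snoRNA135, 30.5% relative to the median Ct and 75% in raw Ct. Without the 3 wells, 25 of the 46 rose and miR-135a fell. Leaving out a single value gave between 37 and 52 rises. Of the 50 calls, 36 held in all 8 such runs, and these were 35 rises and the fall of miR-685. The number of falls went to 1 without value 1 of day 3 or value 4 of day 4, and to 2 without value 2 or 4 of day 3 or value 2 or 3 of day 4.

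Of the 46 that rose, 43 did so at least 2-fold and 15 at least 4-fold. The raw Ct of the arms did not overlap for 79 of the 216 tested miRNAs (36.6%), among them 49 of the 50 that rose or fell. The largest rise was that of miR-187 and the largest fall that of miR-685. Whether a change reflects other cells or other amounts of RNA per cell cannot be told apart in whole muscle.

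**Figure D2:**
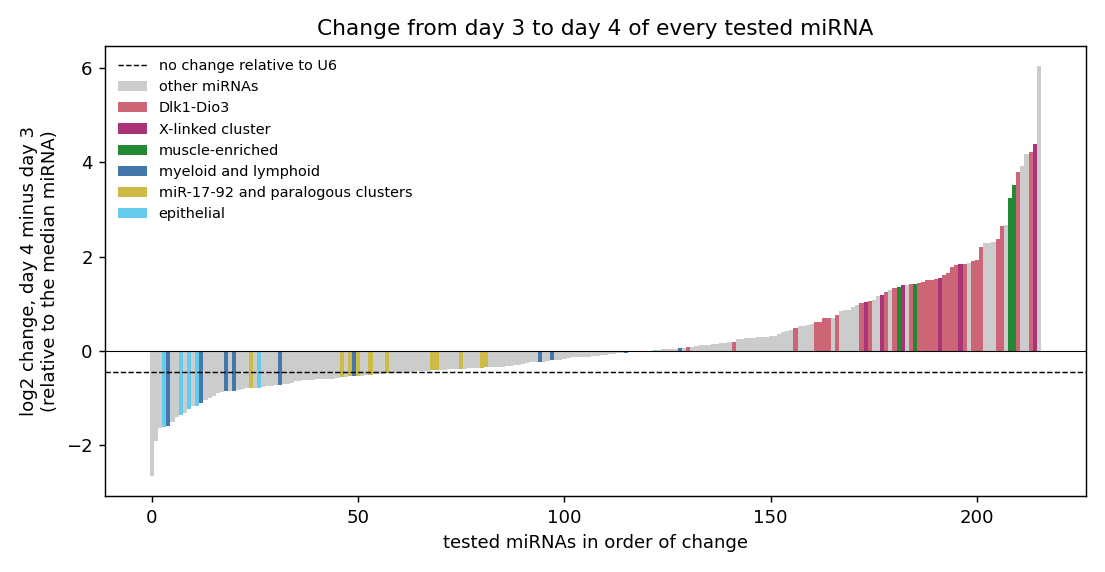
Log2 change from day 3 to day 4 of the 216 tested miRNAs relative to the median miRNA, ordered from the largest fall (-2.65) to the largest rise (6.03), with the members of 6 lists in colour. The dashed line marks no change relative to U6. Muscle-enriched, X-linked and Dlk1-Dio3 miRNAs lie on the right, and most epithelial, myeloid and miR-17-92 miRNAs on the left.

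The muscle-enriched miRNAs, which are transcribed in myofibres under myogenic control, were all higher at day 4. All 5 were detected at baseline, with mean Ct 12.92 for miR-1 and 9.35 for miR-133a. The epithelial miR-200c and the neuronal miR-9 were detected there as well, so detection alone cannot check the labelled tissue. All 4 muscle-enriched miRNAs that could be tested rose, beside 21.3% of all tested miRNAs. The median change of these 4 was 2.33, against -0.11 over all tested miRNAs. It stayed above 0 on all 10 scalings tried, lowest at 1.31 relative to Y1. miR-133b, a myogenic miRNA that is made with miR-206, had Ct 19.49, 18.41, 19.34 and 19.53 at day 3 and 15.58, 15.68, 15.83 and 15.81 at day 4. The nearest values of the arms were 2.58 cycles apart, and value 2 of day 3 stood apart from the other 3. miR-133b rose 9.39-fold (log2 3.23 ± 0.29, SE; adjusted p = 7.78e-09 by limma; 3.68 relative to U6). Its baseline mean was Ct 14.96, and relative to baseline it was at -4.94 on day 3 and -1.71 on day 4.

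miR-486, encoded in the ankyrin-1 gene, was at Ct 32.53, 31.62, 30.51 and 32.65 on day 3. At day 4 it was at 28.15, 27.35, 28.97 and 27.80. The arms did not overlap, and it rose 11.5-fold (log2 3.52 ± 0.57; adjusted p = 2.48e-05 by limma; 3.97 relative to U6). miR-486 is also abundant in red cells, whose miR-451 had a change of -1.04 ± 0.36 over the same day (-0.59 relative to U6, not passing). Whether red cells bear on the values of miR-486 was not tested.

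miR-1 and miR-133a, the main products of the bicistronic muscle loci, had smaller changes. miR-1 had Ct 18.53, 17.42, 18.73 and 18.96 at day 3 and 16.47, 16.14, 17.14 and 17.23 at day 4. It rose 2.69-fold (log2 1.43 ± 0.47; adjusted p = 0.0151 by limma). In raw Ct its arms were 0.19 cycles apart at their nearest values, and relative to the median miRNA they overlapped. miR-133a had Ct 15.30, 13.05, 14.71 and 14.99 at day 3 and 13.00, 12.03, 13.77 and 12.91 at day 4. Its arms overlapped through value 2 of day 3, and it rose 2.55-fold (log2 1.35 ± 0.43; adjusted p = 0.0122 by limma).

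The within-well ratio of 2 miRNAs needs no scaling but rests on matching the values of the assays by their order. A set of 20 such ratios was compared after the values had been seen. The ratio of miR-133b to miR-133a was 3.69-fold higher at day 4 (log2 difference 1.88 ± 0.41, SE), in every day 4 value over every day 3 value. Its exact permutation p was 0.0286, the smallest possible with 4 against 4. After adjustment over the 20 ratios it was 0.052, the smallest value any of the ratios reached.

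miR-499, encoded in a slow myosin gene, was not detected at day 3, with Ct 36.00, 35.97, 36.19 and 37.01. At day 4 all 4 values were detected, at 29.63, 30.45, 31.05 and 30.71. Counting the day 3 values at Ct 35, its day 4 level was higher by at least 19.75-fold, or at least 26.96-fold with U6 as the scale. Without the 3 wells, miR-133b and miR-486 were still called and miR-1 and miR-133a were not. The calls of miR-1 and miR-133a were also lost when value 2 of day 4 was left out (adjusted p = 0.0515 and 0.0535 by limma, relative to the median miRNA), and that of miR-1 without value 3 of day 3 (adjusted p = 0.0522), value 4 of day 3 or value 1 of day 4. Relative to Y1 neither passed, with miR-1 at 0.41 (adjusted p = 0.346 by limma) and miR-133a at 0.33 (adjusted p = 0.43). With only days 3 and 4 in the fit, where no other arm enters the spread, miR-133a did not pass (adjusted p = 0.054 by limma).

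**Figure D3:**
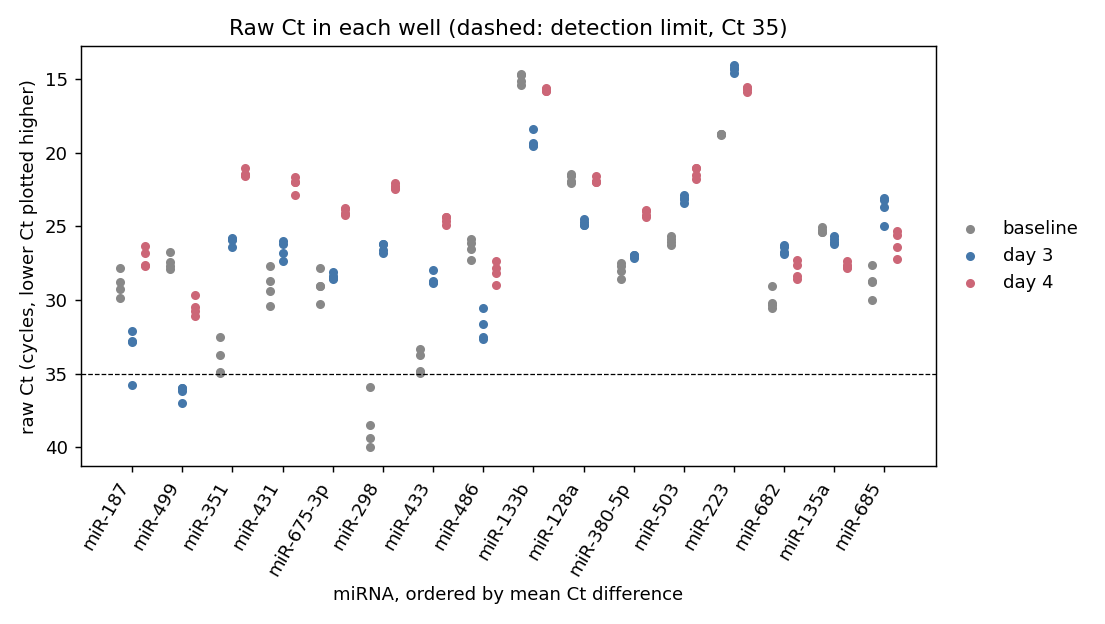
Raw Ct (cycles, axis inverted) of the 10 largest rises, the 4 falls, miR-499 and miR-503 in each of 4 values at baseline, day 3 and day 4, ordered by the difference in mean Ct, with the detection limit of Ct 35 dashed. At day 4 miR-351, miR-298 and miR-433 lie far above both their day 3 and their baseline points, while miR-133b and miR-486 lie between their day 3 and baseline points.

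The X-linked cluster, whose miR-322 and miR-503 are known to slow the cell cycle of differentiating myoblasts, was higher at day 4. All 6 measured miRNAs rose, beside 21.3% of all tested miRNAs, and 4 of the calls held in all 8 runs that left out a value. The cluster's median change was 1.47, against -0.11 over all tested miRNAs. It was above 0 on all 10 scalings and lowest at 0.45 relative to Y1. Relative to Y1, miR-351 and miR-542-3p passed and the other members did not. miR-351 was at Ct 25.86, 25.94, 25.79 and 26.39 on day 3 and at 21.42, 21.51, 21.56 and 21.01 on day 4. The arms were over 4 cycles apart, and miR-351 rose 20.9-fold (log2 4.38 ± 0.52; adjusted p = 4.96e-07 by limma; 4.83 relative to U6). At baseline its mean Ct was 34.02, near the detection limit.

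miR-503, a member that acts on the cell cycle phosphatase Cdc25a, had Ct 23.44, 23.08, 22.84 and 23.11 at day 3 and 21.51, 21.02, 21.77 and 21.02 at day 4. It rose 2.93-fold with no overlap (log2 1.55 ± 0.18; adjusted p = 3.23e-07 by limma; 2.00 relative to U6). Relative to Y1, miR-503 did not pass (0.53, adjusted p = 0.117 by limma). miR-322, its neighbour and the mouse counterpart of human miR-424, had Ct 20.93, 21.15, 20.64 and 21.25 and then 19.57, 19.91, 19.75 and 19.67. It rose 2.04-fold (log2 1.03 ± 0.18; adjusted p = 5.46e-05 by limma), and relative to Y1 its change was close to 0 (adjusted p = 0.988). Its call held in 3 of the 8 runs and was lost without value 2, 3 or 4 of day 3 or value 1 or 3 of day 4. The remaining members, miR-542-3p, miR-542-5p and miR-450a-5p, rose by 1.84 ± 0.22, 1.39 ± 0.20 and 1.19 ± 0.18. The call of miR-450a-5p was lost in 4 of the 8 runs, without value 2 or 3 of day 3 or value 1 or 3 of day 4. Relative to Y1, miR-542-5p (0.365, adjusted p = 0.211 by limma) and miR-450a-5p (0.17, adjusted p = 0.659) did not pass.

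Inside the cluster the ratio of miR-351 to miR-322 was 10.2-fold higher at day 4 (log2 difference 3.35 ± 0.15), without overlap (exact permutation p = 0.0286, adjusted 0.052). The ratios of miR-503, miR-542-3p, miR-542-5p and miR-450a-5p to miR-322 had differences of 0.52 ± 0.27, 0.81 ± 0.28, 0.36 ± 0.16 and 0.16 ± 0.11, and in each the arms overlapped (exact permutation p from 0.0571 to 0.2). Without the 3 wells, miR-351, miR-503, miR-542-3p and miR-542-5p were still called, and miR-322 and miR-450a-5p were not.

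The miRNAs that share the cluster's seeds but are encoded elsewhere did not rise with it. miR-125a-5p and miR-125b-5p, with the seed of miR-351, had changes of 0.27 ± 0.34 and -0.09 ± 0.14, and neither passed on either scaling. miR-125a-5p had Ct 19.35 to 20.88 at day 3 and 19.01 to 20.31 at day 4, and miR-125b-5p 17.95 to 18.65 and 17.97 to 18.40. The ratios of miR-351 to miR-125a-5p and to miR-125b-5p were 17.4-fold and 22.2-fold higher at day 4, without overlap (exact permutation p = 0.0286 for each, adjusted 0.052).

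Of the relatives with the seed of miR-322, miR-15a was at -0.87 ± 0.15, miR-16 at -0.85 ± 0.17, miR-15b at -0.52 ± 0.15 and miR-195 at -0.35 ± 0.11. These 4 passed as lower on the first scaling and not with U6, where they had changes of -0.43, -0.40, -0.07 and 0.10. The last of them, miR-497, was at 0.02 ± 0.19. The ratio of miR-322 to each of the 5 was higher in every day 4 value than in any day 3 value, from 2.02-fold for miR-497 to 3.75-fold for miR-15a (exact permutation p = 0.0286 for each, adjusted 0.052).

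**Figure D4:**
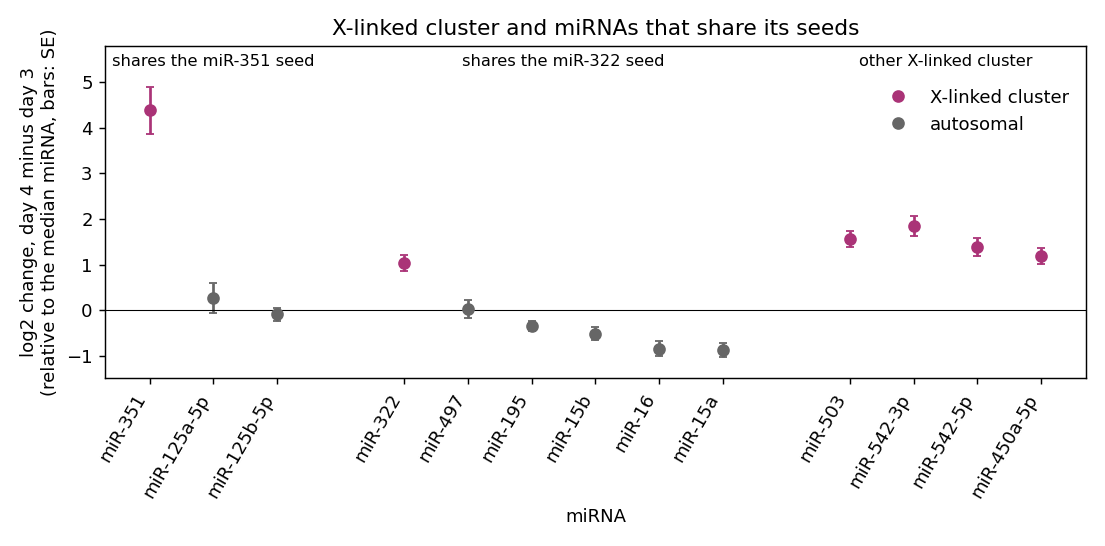
Log2 change from day 3 to day 4 relative to the median miRNA, with standard errors, of the X-linked cluster and of the autosomal miRNAs that carry the seed of miR-351 or of miR-322. miR-351 stands at 4.38 and miR-322 at 1.03, and the autosomal relatives between -0.87 and 0.27.

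The imprinted Dlk1-Dio3 region of chromosome 12, whose miRNAs are expressed from the maternal chromosome, gave the largest number of rises. Of its 30 measured miRNAs, 23 rose and 0 fell, and 28 passed as higher relative to the median miRNA. The median change was 1.48, against -0.24 over the 186 tested miRNAs outside the region, of which 23 rose. The region's median was above 0 on all 10 scalings, lowest at 0.46 relative to Y1 and highest at 1.93 relative to U6. Relative to Y1, the called members that passed were miR-369-5p, miR-380-5p, miR-410, miR-431, miR-433, miR-434-3p, miR-544 and miR-667. The other called members did not pass relative to Y1, and miR-376c was at -0.27 there (adjusted p = 0.425 by limma). Without the 3 wells, 13 of the 23 were still called and the median was 1.62. In the runs that left out a single value, 20 of the 23 kept their call throughout.

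miR-431, which is known to favour myogenic differentiation, was at Ct 27.34, 26.16, 25.99 and 26.82 on day 3 and 22.01, 21.65, 22.86 and 22.00 on day 4. The arms did not overlap, and it rose 18.5-fold (log2 4.21 ± 0.55; adjusted p = 2.05e-06 by limma; 4.66 relative to U6). miR-433, from the same stretch antisense to Rtl1, was at 28.80, 28.81, 27.96 and 28.69 and then at 24.35, 24.33, 24.90 and 24.60. It rose 13.8-fold (3.78 ± 0.31; adjusted p = 3.4e-09 by limma; 4.23 relative to U6). Its baseline mean of Ct 34.22 lay near the detection limit. miR-380-5p, encoded further along, was at 27.12, 26.94, 26.93 and 27.00 and then at 23.96, 23.90, 24.38 and 24.19, a rise of 6.29-fold (2.65 ± 0.17; adjusted p = 9.22e-11 by limma).

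The other members covered a wide range. miR-544, miR-667, miR-370 and miR-410 rose by 2.37 ± 0.26, 2.20 ± 0.25, 1.92 ± 0.68 and 1.91 ± 0.17, and these 4 were named after their values were seen. At the low end of the called members, miR-411 rose by 1.05 ± 0.16, miR-337-3p by 1.02 ± 0.17 and miR-376c by 0.76 ± 0.13. The last of these calls held in 2 of the 8 runs and that of miR-337-3p in 4. The call of miR-665 was lost without value 4 of day 3 or value 2 or 4 of day 4. The 7 that were not called were miR-337-5p, miR-136, miR-379, miR-494, miR-409-3p, miR-134 and miR-376b, with changes from 0.09 to 0.70. The first 5 of these passed relative to the median miRNA but not relative to U6 (adjusted p from 0.0544 to 0.131 by limma).

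At day 3 the members ranged from -2.24 to 4.95 relative to baseline. Of the 30, 12 lay within 0.5 log2 units of it, 10 lay over 1 above and 4 over 1 below. miR-127, an abundant member that lies antisense to Rtl1, was 0.05 log2 units above baseline at day 3 and 1.58 at day 4. miR-434-3p, from the same stretch, was at -2.24 and then at -0.58. Averaged over the 30 members, the level relative to baseline was 0.52 to 0.83 in the 4 day 3 values and 1.96 to 2.41 in the 4 day 4 values, without overlap.

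**Figure D5:**
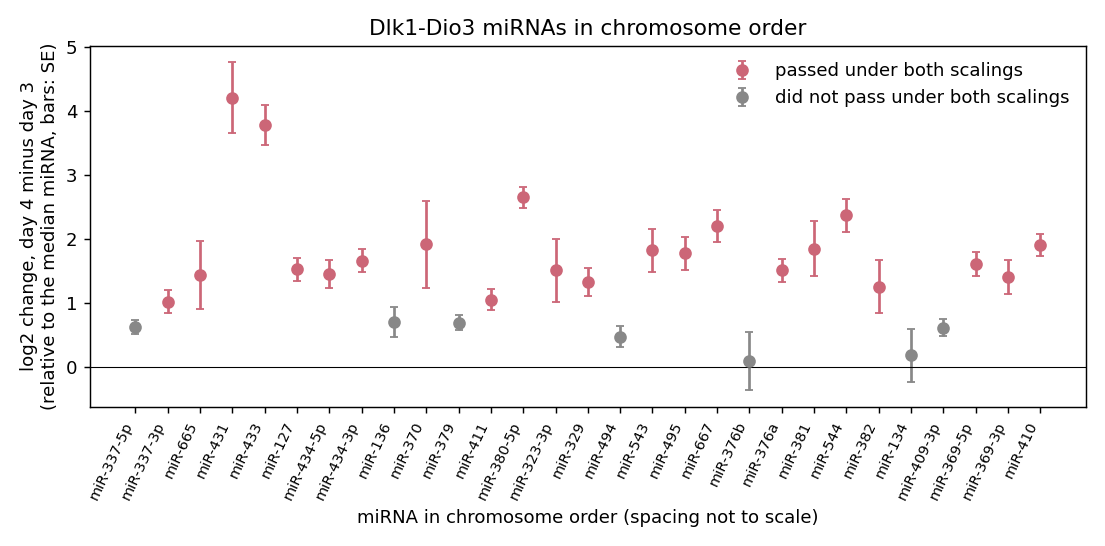
Log2 change from day 3 to day 4 relative to the median miRNA, with standard errors, of 29 Dlk1-Dio3 miRNAs in chromosome order (miR-376c, at 0.76, had no matched position). Every point lies above 0, miR-431 (4.21) and miR-433 (3.78) stand highest, and members that were not called lie beside called ones along the region.

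Among the other rises, miR-187 changed most. It was at Ct 32.82, 32.08, 32.80 and 35.77 on day 3 and 26.79, 26.36, 27.59 and 27.66 on day 4. The arms were over 4 cycles apart, and it rose 65.4-fold (log2 6.03 ± 0.74; adjusted p = 7.11e-07 by limma; 6.48 relative to U6). Value 4 of day 3 lay past the detection limit, so with any of the other 3 left out, or without the 3 wells, miR-187 was not tested. Its baseline mean was Ct 28.95, and by day 4 it stood 0.90 log2 units above baseline.

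miR-675-3p, cut from the imprinted H19 RNA and known to promote myoblast differentiation, had Ct 28.10, 28.60, 28.38 and 28.47 at day 3 and 23.78, 24.11, 24.19 and 23.80 at day 4. The arms were nearly 4 cycles apart, and it rose 18.1-fold (4.18 ± 0.33; adjusted p = 4.75e-09 by limma; 4.63 relative to U6). At day 3 it had been at its baseline level (-0.05). miR-298, from the imprinted Nespas and Gnas locus, had Ct 26.18, 26.58, 26.17 and 26.81 and then 22.05, 22.24, 22.47 and 22.37. It rose 15.1-fold (3.92 ± 0.51; adjusted p = 6.82e-06 by limma). At baseline miR-298 was not detected, with Ct 39.4, 35.89, 40 and 38.49. Its neighbour miR-296-5p, named after its values were seen, rose by 2.29 ± 0.32. miR-675-3p, miR-298 and miR-296-5p were still called without the 3 wells.

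The list of satellite cell and myoblast miRNAs was divided, with 2 of 14 rising and 6 passing as lower on the first scaling (median -0.36, and 0.09 relative to U6). Over all tested miRNAs, 21.3% rose and 28.2% passed as lower on that scaling. miR-128a had Ct 24.47, 24.92, 24.71 and 24.93 at day 3 and 21.58, 21.93, 21.97 and 21.95 at day 4. It rose 6.34-fold without overlap (2.66 ± 0.17; adjusted p = 1.03e-10 by limma). miR-489, which helps to keep satellite cells quiescent, went from 32.53, 30.53, 30.31 and 30.98 to 28.42, 28.77, 28.49 and 28.56. It rose 4.90-fold (2.29 ± 0.37; adjusted p = 2.77e-05 by limma), and relative to baseline it was still at -3.12 on day 4. miR-31, a further miRNA linked to quiescence, had a change of 0.27 ± 0.24. It lay 6.2 log2 units above baseline at day 3 and 6.5 at day 4. For miR-222, which acts on the cell cycle inhibitor p27, the change was -0.82 ± 0.14 (-0.38 relative to U6, not passing). miR-128a and miR-489 were still called without the 3 wells.

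Arms of a hairpin were compared by the sign of their change, which depends on the scaling. Of 17 hairpins with both arms measured, 15 had the same sign of change in both relative to the median miRNA. The arms of miR-125a had opposite signs. Its 5p arm was at 0.27 ± 0.34, and its 3p arm was lower on the first scaling at -0.68 ± 0.23. Those of miR-342, named after its values were seen, were also opposite, at 0.05 ± 0.39 (5p) and -0.20 ± 0.29 (3p). The arms of miR-125b had the same sign and differed by 0.79. The largest difference was that of miR-335, from an intron of the imprinted Mest gene. miR-335-5p was at Ct 22.44, 22.79, 22.82 and 23.09 on day 3 and 19.87, 20.75, 20.03 and 20.27 on day 4, and rose by 2.32 ± 0.27 (adjusted p = 4.25e-07 by limma). miR-335-3p was at 21.44, 21.14, 21.36 and 21.43 and then at 20.09, 20.96, 20.10 and 19.80, and rose by 0.87 ± 0.23 (adjusted p = 0.00325 by limma). The ratio of the 5p to the 3p arm was 2.73-fold higher at day 4 without overlap (exact permutation p = 0.0286, adjusted 0.052). Relative to Y1, miR-335-3p was at -0.16, and its call held in 3 of the 8 runs that left out a value. Without the 3 wells miR-335-5p was still called, and miR-335-3p was not (0.65, adjusted p = 0.099 by limma).

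The arms of miR-337, miR-369, miR-434, miR-532 and miR-542 differed by at most 0.45 in log2 change, and their ratios overlapped between days (exact permutation p from 0.0571 to 0.886). miR-103 and miR-107, which share a seed and are hosted in pantothenate kinase genes, had changes of 0.32 ± 0.30 and 1.87 ± 0.60. miR-107, named after its values were seen, rose, was not called without the 3 wells (2.08, adjusted p = 0.0539 by limma), and its ratio to miR-103 was 2.92-fold higher at day 4 (exact permutation p = 0.0286, adjusted 0.052). The mature sequences of that pair are nearly identical, so their assays may in part read each other. The same holds for miR-133a and miR-133b.

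miR-532-3p, from the Clcn5 gene, rose by 0.87 ± 0.13 (-0.15 relative to Y1). Its call was lost without value 3 of day 3, value 1 or 3 of day 4, or the 3 wells.

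The 4 falls were smaller than the leading rises. miR-685 was at Ct 23.65, 24.94, 23.19 and 23.05 on day 3 and 26.40, 25.31, 27.19 and 25.57 on day 4. The nearest values of the arms were 0.37 cycles apart, and it fell by 2.65 ± 0.77 on the log2 scale (adjusted p = 0.00657 by limma; -2.20 relative to U6). It kept its call in each of the 8 runs that left out a value and lost it without the 3 wells (-1.99, adjusted p = 0.134 by limma).

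miR-135a was at 26.08, 26.21, 25.86 and 25.65 and then at 27.33, 27.62, 27.80 and 27.75. It fell by 1.91 ± 0.21 without overlap (adjusted p = 2.3e-07 by limma; -1.46 relative to U6), and with a baseline mean of Ct 25.24 it moved further from baseline. The call was kept without the 3 wells and in 4 of the 8 runs that left out a value, and lost without value 1 or 4 of day 3 or value 2 or 4 of day 4.

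miR-682 was at 26.72, 26.38, 26.29 and 26.85 and then at 28.39, 27.27, 28.60 and 27.61, a fall of 1.64 ± 0.27 on the log2 scale (adjusted p = 2.82e-05 by limma; -1.20 relative to U6). Its call held in 3 of the 8 runs, those without value 3 or 4 of day 3 or value 2 of day 4. Its U6 value did not pass without the 3 wells (-1.02, adjusted p = 0.303 by limma).

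miR-223, the most characteristic miRNA of neutrophils and other myeloid cells, was at Ct 14.59, 14.23, 14.04 and 14.28 on day 3. At day 4 it was at 15.58, 15.64, 15.84 and 15.51, with 0.92 cycles between the nearest values of the arms. It fell by 1.59 ± 0.12 on the log2 scale, to a level 3.02-fold lower (adjusted p = 5.84e-10 by limma). Relative to U6 the change was -1.15 (adjusted p = 0.046), and without the 3 wells the U6 value did not pass (-1.48, adjusted p = 0.0646 by limma). The call on both scalings held in 2 of the 8 runs, those without value 3 of day 3 or value 1 of day 4. At day 4 it was still 2.15 log2 units above its baseline.

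The remaining myeloid and lymphoid miRNAs did not pass as lower on both scalings. Of the 10 in that list, 5 passed as lower on the first scaling and 1 with U6 (medians -0.62 and -0.17). On the first scaling 28.2% of all tested miRNAs were lower. The arms of miR-142, a miRNA of the whole blood lineage, had changes of -0.86 ± 0.15 (5p) and -0.84 ± 0.23 (3p). miR-155, induced in activated macrophages and lymphocytes, was at -0.03 ± 0.15 and miR-146a at -0.23 ± 0.19. Averaged over 9 members detected at baseline, the level above baseline was 1.30 to 1.68 in the day 3 values and 0.82 to 1.17 in the day 4 values, and no member was undetected at either day. How far these cells bear on the other changes was not tested.

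Some members of 4 further families passed as lower relative to the median miRNA without passing relative to U6. Over all tested miRNAs, 28.2% were lower on that scaling. Of the 11 miRNAs of miR-17-92 and its paralogues, which are tied to proliferation, 10 did so (median -0.47, and -0.03 relative to U6), with miR-92a at -0.79 ± 0.14, miR-19b at -0.56 ± 0.19 and miR-106a at -0.53 ± 0.13. Of the 5 miR-30 miRNAs, abundant in differentiated tissue, 3 did so, with miR-30a at -0.63 ± 0.16. Of the 3 miR-29 miRNAs, which act on collagen mRNAs, miR-29a did so at -0.57 ± 0.19, although it was at 0.13 after quantile scaling. In the let-7 family, 2 of 9 did so, a share below that of all tested miRNAs (median -0.07, and 0.38 relative to U6).

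Markers of other cells gave the following values, beside 28.2% of all tested miRNAs that passed as lower on the first scaling. The epithelial list had a median of -1.19 (-0.74 relative to U6), and of its 6 members 3 passed as lower on the first scaling and 0 with U6. These 3 were miR-200a at -1.35 ± 0.47, miR-141 at -1.22 ± 0.44 and miR-200c at -1.16 ± 0.19. The other members did not pass, with miR-429 at -1.60 ± 0.73 (adjusted p = 0.0689 by limma), miR-200b at -0.78 and miR-203 at 0.02. miR-200c, miR-200b and miR-203 were named after their values were seen. Its mean level over 5 members was 3.14 to 3.58 above baseline at day 3 and 2.11 to 2.84 at day 4, and all were detected. In the vessel wall list 2 of 4 passed as lower relative to the median miRNA (miR-126-5p at -0.79 ± 0.20, miR-126-3p at -0.60 ± 0.13), and 0 relative to U6.

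Among 4 fibroblast miRNAs, miR-21 passed as lower on the first scaling (-0.62 ± 0.18, and -0.17 relative to U6), as did 28.2% of all tested miRNAs. miR-214 and miR-199a-3p were at 0.06 ± 0.16 and 0.36 ± 0.16. None of the 5 miR-99, miR-100 and miR-125 miRNAs passed on either scaling, with changes from -0.09 to 0.28, and the largest, miR-99b, was fitted without value 3 of day 4, which was at the last cycle.

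Of the 5 miRNAs of the neuronal list, 1 rose and 1 passed as lower on the first scaling (median -0.39), beside 21.3% and 28.2% of all tested miRNAs. miR-138, abundant in neurons, rose by 1.29 ± 0.17. It did not pass relative to Y1 (0.27, adjusted p = 0.437 by limma), nor relative to U6 without the 3 wells (adjusted p = 0.0989). miR-7a was at -1.31 ± 0.19 (-0.86 relative to U6, adjusted p = 0.26 by limma), miR-9 at -0.43 ± 0.27, miR-218 at -0.39 and miR-129-3p at -0.34. The last pair, like the 3p arms of miR-125a and miR-125b, was named after its values were seen. The liver and endocrine miR-215 and miR-192 were at -1.52 ± 0.43 and -0.46 ± 0.14, both passing only relative to the median miRNA. Of the Sfmbt2 intron cluster, a rodent cluster of related miRNAs, 1 of 6 passed as lower on that scaling (miR-467b, -0.73 ± 0.13). miR-34a, a p53 target, was at -0.60 ± 0.13, passing on that scaling alone, while miR-34c and miR-34b-3p, from another p53-responsive locus, were at -0.07 ± 0.26 and -0.01 ± 0.16.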

How the data were processed

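TaqMan RT-PCR was run on total RNA with an integrity number above 9 for 40 cycles, per the labels' protocols. The authors deposited raw Ct values, with no normalization stated, in 1 column per arm and 4 values for each of 222 assays. For RNA input, Ct threshold and assay release, nothing was found in the sources used here. All 5 files repeat the same baseline values, which entered the fit as 4 values. No total count exists, so the number of values limits the precision.

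Ct was scaled to minus Ct relative to the median miRNA, or to U6. All 6 arms (baseline and days 1, 3, 4, 7 and 21) entered one limma 3.58.1 fit per miRNA (R 4.3.3), with the contrast day 4 minus day 3, two-sided, and Benjamini-Hochberg adjustment over 216 miRNAs. Values at Ct 40 were left out. Control RNAs and within-well ratios had two-sided exact permutation tests over the 8 values, and the ratios and their test were added after the values were seen. Simulated data with known changes were used to test the code. Alternatives covered scaling, detection limit, fit, fold and left-out values.

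The comparison, its members and the lists were chosen with earlier results of these data known. Named miRNAs are the 10 largest rises, all 4 falls, the muscle-enriched and X-linked lists, up to 3 per other list, hairpin arms, seed relatives and miRNAs detected in a single arm, 79 in all. The other markers miR-206, miR-144, miR-205, miR-124 and miR-137 were not analysed here.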

Additional observations from a re-analysis of the deposited data

Results flagged for a closer look

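In 11 of 167 groups of 4 values (6.59%), the highest or lowest value stood apart from the other 3, where chance alone gives about 1 in 20. At day 3 these were miR-100 (Ct 19.25, others 19.89 to 19.95), miR-133b (18.41, others 19.34 to 19.53), miR-138 (22.19, others 22.50 to 22.56), miR-15a (20.31, others 21.05 to 21.09), miR-433 (27.96, others 28.69 to 28.81) and snoRNA135 (17.23, others 17.95 to 17.99). At day 4 they were miR-128a (21.58, others 21.93 to 21.97), miR-200a (28.28, others 26.83 to 27.04), miR-214 (18.34, others 18.20 to 18.22), miR-369-5p (27.71, others 27.01 to 27.10) and miR-451 (20.62, others 20.08 to 20.16).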

How the results depend on the processing

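The 56 higher and 61 lower calls relative to the median miRNA, 117 in all, moved by over 1.5 times as follows. The lower calls became 4 with U6 (50 in all), 9 with U87 (66 in all), 19 with snoRNA135, 21 in raw Ct, 107 with the median Ct and 144 with Y1, where 19 were higher. They became 37 at 1.5-fold or more and 12 at 2-fold or more (55 in all). Without the 3 wells of high U6, chosen after seeing the data, 38 were lower. With U6 as well, 28 passed, 27 higher and 1 lower.

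Leaving out a single value gave 105 to 122 calls, 51 to 57 higher and 49 to 66 lower. Among the 79 named miRNAs, a change that passed took the other sign for miR-335-3p (-0.16), miR-532-3p (-0.15), miR-337-5p (-0.40) and miR-532-5p (-0.0825) with Y1, let-7i (0.085) and miR-195 (0.10) with U6, and miR-29a (0.13) after quantile scaling. The cause was not tested. A further 53 values, of 15 named miRNAs that had not passed, changed sign. No paired analysis was possible because the labels give no replicate numbers and each day had its own mice. The 4 values per arm and the spread of U6 limit what small changes can show.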
